A study of Mus musculus with 1528 samples.

Results

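The cells described here are single bone marrow-derived macrophages (BMDMs) that carried the most Apoe mRNA after stimulation with IL4 and IL13. They were chosen by their Apoe level alone: of the 721 IL4/IL13-stimulated cells that passed the quality filter, the 108 with the highest Apoe level, as fragments per 1000000 fragments assigned to genes (CPM), are called Apoe-high. They were compared with the 310 cells that held under 10 CPM of Apoe, called Apoe-low, by levels on each plate and by tests on sums per mouse. The 303 cells between these levels are given where they add to the picture. Bone marrow of wild-type C57BL/6 mice (C57BL/6J in the study's methods) was differentiated with M-CSF, and the macrophages received IL4 and IL13, or IL4 and IL13 with TNF, each cytokine at 10 ng/ml for 24 h. Live single cells were sorted into 384-well plates and sequenced by Smart-seq2, a full-length cDNA method. The series holds 1524 labelled wells on 4 plates, with plates 2 and 3 from mouse 1 and plates 4 and 5 from mouse 2, and both stimulations on every plate. The mouse is the replicate (n = 2), and a difference between the mice cannot be told apart from one between their plates.

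Apolipoprotein E is a secreted lipid carrier that many macrophages make. It accepts cholesterol exported from the cell and is bound by cell-surface receptors when lipid particles are taken up. Its gene is a known target of the oxysterol-sensing LXR receptors and is often highly expressed in tissue-resident and lipid-laden macrophages. IL4 and IL13, which signal through shared receptor chains and STAT6, drive macrophages into the alternatively activated (M2) state, whereas TNF is an inflammatory cytokine.

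Apoe (mm10, chromosome 7, 19696109 to 19699188, minus strand) was very unevenly spread over the cells. The Apoe-high cells held 377.7 to 10180 CPM, with a median of 1110 CPM. Of the 108, 61 held over 1000 CPM and 6 over 5000 CPM. Together they carried 89.9% of all Apoe fragments of the 721 cells, and this share was 90.5%, 92.2%, 85.0% and 91.8% on plates 2 to 5. Of the 310 Apoe-low cells, 167 had no Apoe fragment. The 3 lowest members held 377.7, 387.1 and 390.4 CPM and the 3 highest cells outside the class 365.8, 358.1 and 354.6 CPM, so no gap separates the class from the rest. These values chose the cells and are given without a test.

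Apoe-high cells occurred on every plate. Plates 2 to 5 held 22, 28, 28 and 30 of them, which was 12.2%, 15.5%, 15.1% and 17.2% of their IL4/IL13 cells. Their median Apoe was 945, 1024, 1032 and 1269 CPM, and per mouse 13.8% and 16.2% of the cells were members. The cells outside the class were not alike: the median over all IL4/IL13 cells was 1.39 and 2.42 CPM on the plates of mouse 1 but 42.2 and 30.2 CPM on those of mouse 2. Apoe-low cells therefore numbered 131, 132, 9 and 38 on plates 2 to 5, and cells between the levels 28, 21, 148 and 106. Results for plate 4 thus rest on 9 Apoe-low cells. Apoe-high wells lay in 7 or 8 of the 8 rows and in 17 to 19 columns of each plate. The rank correlation of a well's Apoe CPM with the Apoe fragments of wells in its row and column, among cells outside the class, was 0.17, 0.20, 0.27 and -0.25 on the 4 plates with IL4/IL13 and 0.61 at most, on plate 5 with TNF. The part of transfer between wells in the low Apoe levels was not tested.

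**Figure D1:**
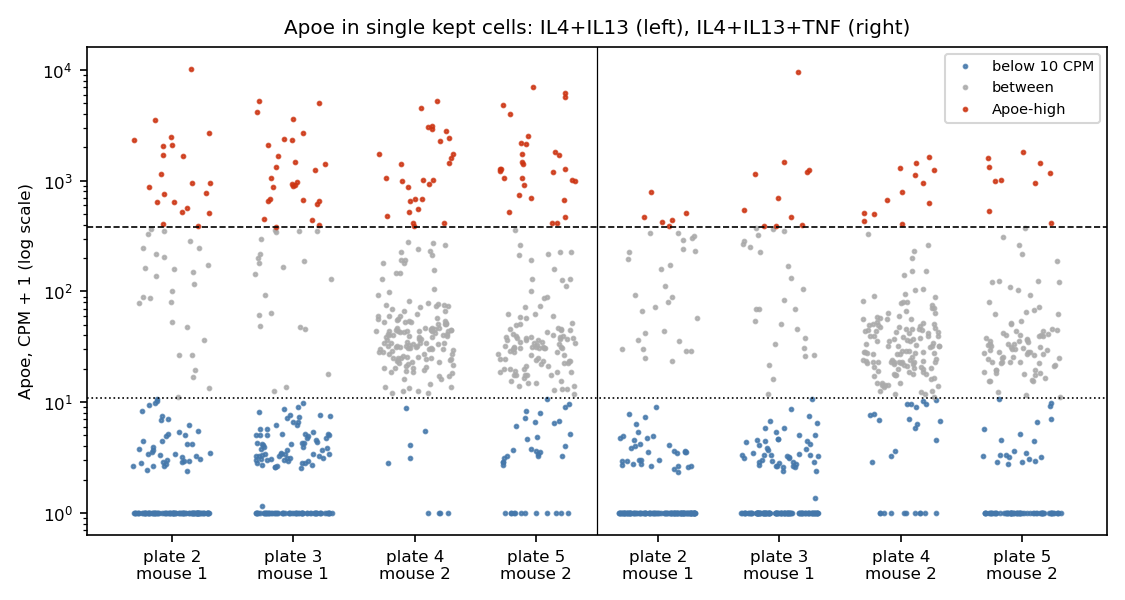
Apoe CPM of every kept cell (points, log scale after adding 1 CPM) by plate and stimulation, with the limit of the Apoe-high class drawn as a line. With IL4/IL13, most cells of mouse 1 (plates 2 and 3) lie near 0 CPM and most of mouse 2 (plates 4 and 5) between 10 and 100 CPM, and cells above the limit of 377.7 CPM are present on all 4 plates.

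The Apoe-high cells had libraries of similar size to the others and carried the macrophage markers. Their median depth was 477408 gene fragments against 472850 in the Apoe-low cells, with 7564 against 7778 detected genes and 3.42% against 3.11% mitochondrial fragments. The median share of spike-in RNA was 0.060% against 0.046% over both mice, values that mix class with mouse. It was 0.0469% against 0.0440% in mouse 1 and 0.0747% against 0.0745% in mouse 2. The part of this share in the results was not tested. All 16 macrophage identity genes, among them Csf1r, Adgre1 and Mertk, were detected in the members. These genes summed to a median of 24545 CPM per cell in the Apoe-high and 19381 CPM in the Apoe-low cells, values that mix class with mouse. Summed per plate they were at 26929, 26334, 25454 and 28737 CPM against 22130, 20260, 19693 and 28935 CPM on plates 2 to 5, with no rise on plate 5. In the comparison below their median log2 difference was 0.03, with 9 positive and 7 negative. Markers of other cells a marrow culture can hold were low. The 11 dendritic cell genes summed to a median of 10.4 CPM (0 to 233) per Apoe-high and 10.9 CPM (0 to 510) per Apoe-low cell, with Xcr1 at 0 in the members, and the lymphocyte list to 65.5 and 63.5 CPM. The neutrophil, mast cell, erythroid and stromal lists had medians of 0 CPM in both classes, with 8 of 13 neutrophil genes, among them Ly6g, Elane and Mpo, at 0 in the members, and the monocyte list had 1.81 and 0 CPM. Few genes of these 7 lists could be tested in the comparison below: 4 of 11 dendritic cell, 3 of 13 neutrophil and 5 of 9 monocyte genes. Of the others 1 of 11 mast cell, 2 of 11 lymphocyte, 1 of 15 stromal and 0 of 10 erythroid genes could. None of those tested passed an unadjusted p of 0.05. The 10 osteoclast genes, several of which macrophages also express, summed to a median of 535 CPM (2.40 to 4804) and 258 CPM (0 to 4555), with Calcr and Oscar at 0 in the members, and their part in the results was not tested.

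Which other genes differed between Apoe-high and Apoe-low cells was asked over the whole transcriptome, with counts summed per mouse and class. A sum joins both plates of a mouse, which can hold the classes in unlike numbers. The log2 differences of edgeR are thus within mouse and not within plate. With 4 such sums edgeR's quasi-likelihood test called none of 15222 genes after Benjamini-Hochberg adjustment (0.0% higher and 0.0% lower, smallest adjusted p = 0.97). At an unadjusted p under 0.05, 258 genes were higher (1.69%) and 319 lower (2.1%), and these counts were 35 and 80 with plate 5 left out. DESeq2, fitted to the same sums, called 20 genes higher (0.131%) and 33 lower (0.217%). The differences that follow are therefore given by their values on each plate and in each mouse. The p-values and SEs of edgeR rest on 1 residual degree of freedom and on variance shared across genes (median prior degrees of freedom 2.38). An SE given below is thus not the spread between the 2 mice. By the rule for naming genes, the 10 higher ones were Fabp4, Fabp5, its copies Gm6166 and Gm14328, Mgst1, Selenop, Stab1, Wsb1, Rasa1 and Gm21188. The 10 lower ones were Mmp12, Lsp1, Cd74, Cdkn1a, Cd24a, Rnase2a, Emp2, Plaur, Gsn and Tnip3. All 20 were taken for going the same way on 4 of 4 plates, as did 5.96% of all genes upward and 7.06% downward.

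Among the protein-coding genes of the naming rule with the smallest unadjusted p was a pair of fatty acid-binding proteins, cytosolic carriers of long-chain fatty acids. Fabp4 (chromosome 3, 10204088 to 10208576, minus strand), the form typical of adipocytes and macrophages, was at 417, 283, 394 and 359 CPM in the Apoe-high cells of plates 2 to 5 and at 128, 94.6, 121 and 173 CPM in the Apoe-low cells. Every Apoe-high value lay above every Apoe-low value, which was true of 0.933% of all genes tested in this direction. The edgeR difference was 1.43 ± 0.16 on the log2 scale (SE of the fit, n = 2 mice), a 2.69-fold higher level. Fabp5, whose gene lies near Fabp4 (10012548 to 10016607, plus strand), was at 574, 484, 603 and 499 CPM against 244, 263, 101 and 220 CPM. Here too the plates did not overlap, and the difference was 1.27 ± 0.15, or 2.41-fold, with 1.88 in mouse 2 alone. The cells between the levels had 315, 406, 209 and 209 CPM of Fabp5, which lay between the classes on plates 2 to 4 and just under the Apoe-low value on plate 5.

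Cell by cell, the difference in Fabp5 was a shift of the typical cell. Its median was 408, 426, 392 and 442 CPM in the Apoe-high cells of plates 2 to 5 and 92.4, 118, 0 and 95.2 CPM in the Apoe-low cells. At least 100 CPM of Fabp5 were found in 82 of 108 Apoe-high cells (75.9%), in 153 of 310 Apoe-low cells (49.4%) and in 147 of 303 cells between (48.5%). On single plates the share was 67.9% to 86.4% of the Apoe-high and 33.3% to 51.5% of the Apoe-low cells. Fabp4 was low or absent in most cells of every class. It reached 100 CPM in 48 Apoe-high cells (44.4%), with 45.5%, 39.3%, 46.4% and 46.7% on plates 2 to 5, and in 89 Apoe-low cells (28.7%), with 29.0%, 27.3%, 33.3% and 31.6%. Both genes together passed 100 CPM in 47 Apoe-high cells (43.5%), 78 Apoe-low cells (25.2%) and 65 of the cells between (21.5%), with 39.3% to 46.7% of the Apoe-high and 22.2% to 26.5% of the Apoe-low cells on single plates. Of the 48 Apoe-high cells past this level of Fabp4, 47 were thus also past it for Fabp5.

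**Figure D2:**
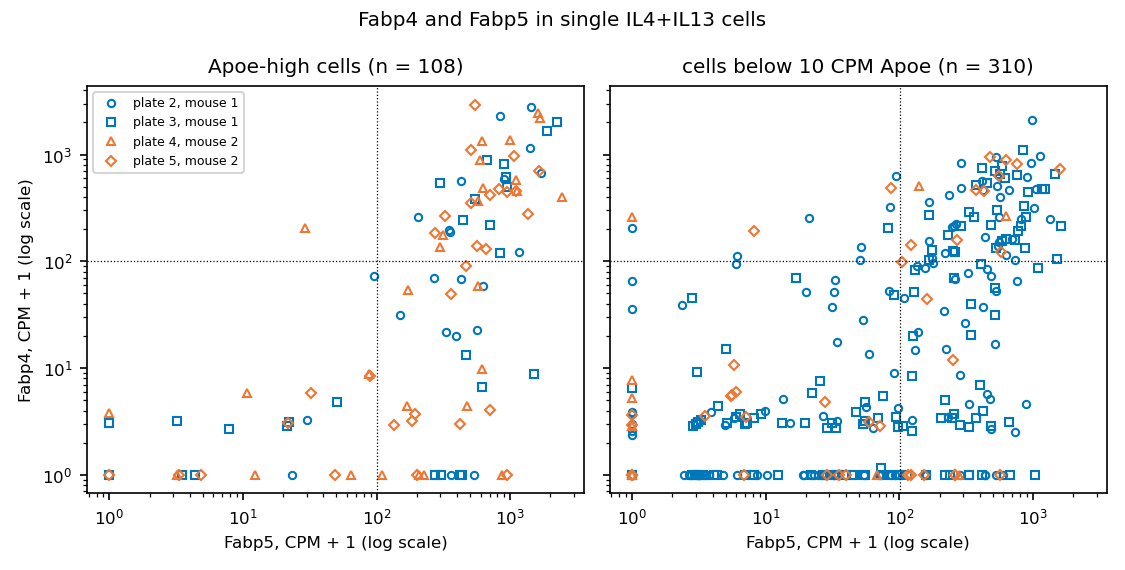
Fabp4 against Fabp5 CPM (both on log scales after adding 1 CPM) in single IL4/IL13-stimulated cells of the Apoe-high and Apoe-low classes. Cells past 100 CPM of both genes made up 43.5% of the Apoe-high and 25.2% of the Apoe-low cells.

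Fragments of Fabp5 can fall on its processed pseudogenes. Gm6166 matched the Fabp5 transcript at 98.3% of 409 bases and Gm14328 at 97.3% of 408, and the log2 differences of these copies were 1.30 ± 0.14 and 1.23 ± 0.15. How the counting split fragments between Fabp5 and its copies is uncertain, and the copies are no separate evidence.

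Mgst1, a membrane-bound glutathione transferase that detoxifies lipid peroxides, was higher by a similar factor. It was at 255, 205, 334 and 420 CPM in the Apoe-high cells of plates 2 to 5 and at 117, 132, 94.1 and 163 CPM in the Apoe-low cells, with no overlap and a log2 difference of 1.11 ± 0.16. At least 100 CPM were present in 79 of 108 Apoe-high cells (73.1%) against 121 of 310 Apoe-low cells (39.0%), with 64.3% to 86.7% and 22.2% to 47.4% on single plates, and in 48.2% of the cells between. Selenop, which encodes the secreted selenium carrier selenoprotein P, was at 963, 931, 1280 and 1513 CPM against 622, 753, 709 and 1060 CPM. It was higher on each plate by itself, yet the plate values of the classes overlapped, and the log2 difference was 0.49 ± 0.07.

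Genes of the resident type of macrophage had mostly positive differences, none of which passed edgeR's adjusted threshold. Of the 24 tested genes in this list, which holds the C1q chains, Maf family factors and scavenger receptors, 22 had a positive and 2 a negative difference, with a median log2 difference of 0.28, while over all genes 7510 differences were positive and 7712 negative with a median of -0.01. Unadjusted p-values were under 0.05 for 8, all higher (C1qa, C1qc, Ms4a7, Selenop, Stab1, Fcrls, Igf1 and P2ry12), against 1.69% of all genes in that direction. DESeq2 called 3, against 0.131% of all genes, and 6 of the 24 were higher on each of the 4 plates, against 5.96% of all genes. Stab1, a scavenger receptor for modified lipoproteins and apoptotic cells, was at 149, 170, 145 and 188 CPM in the Apoe-high and 104, 98.2, 26.1 and 103 CPM in the Apoe-low cells (log2 difference 0.80 ± 0.14), without overlap. The Stab1 difference was 0.70 in mouse 1 and 1.65 in mouse 2 alone, and 1.55 without plate 5.

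C1qa, 1 of the 3 chains of complement C1q, did not follow on every plate. It was at 122, 248, 35.1 and 145 CPM in the Apoe-high and 75.2, 107, 69.3 and 30.3 CPM in the Apoe-low cells, lower on plate 4 and higher on the others (log2 difference 1.20 ± 0.15). This value was 0.06 without plate 5, 1.70 without plate 4 and 0.84 from plate sums with the plate as block. Its neighbours C1qb and C1qc differed by 0.21 and 0.31, and C1qb was at -0.066 without plate 5. Ms4a7, a membrane protein of resident macrophages, differed by 0.40 ± 0.09.

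**Figure D3:**
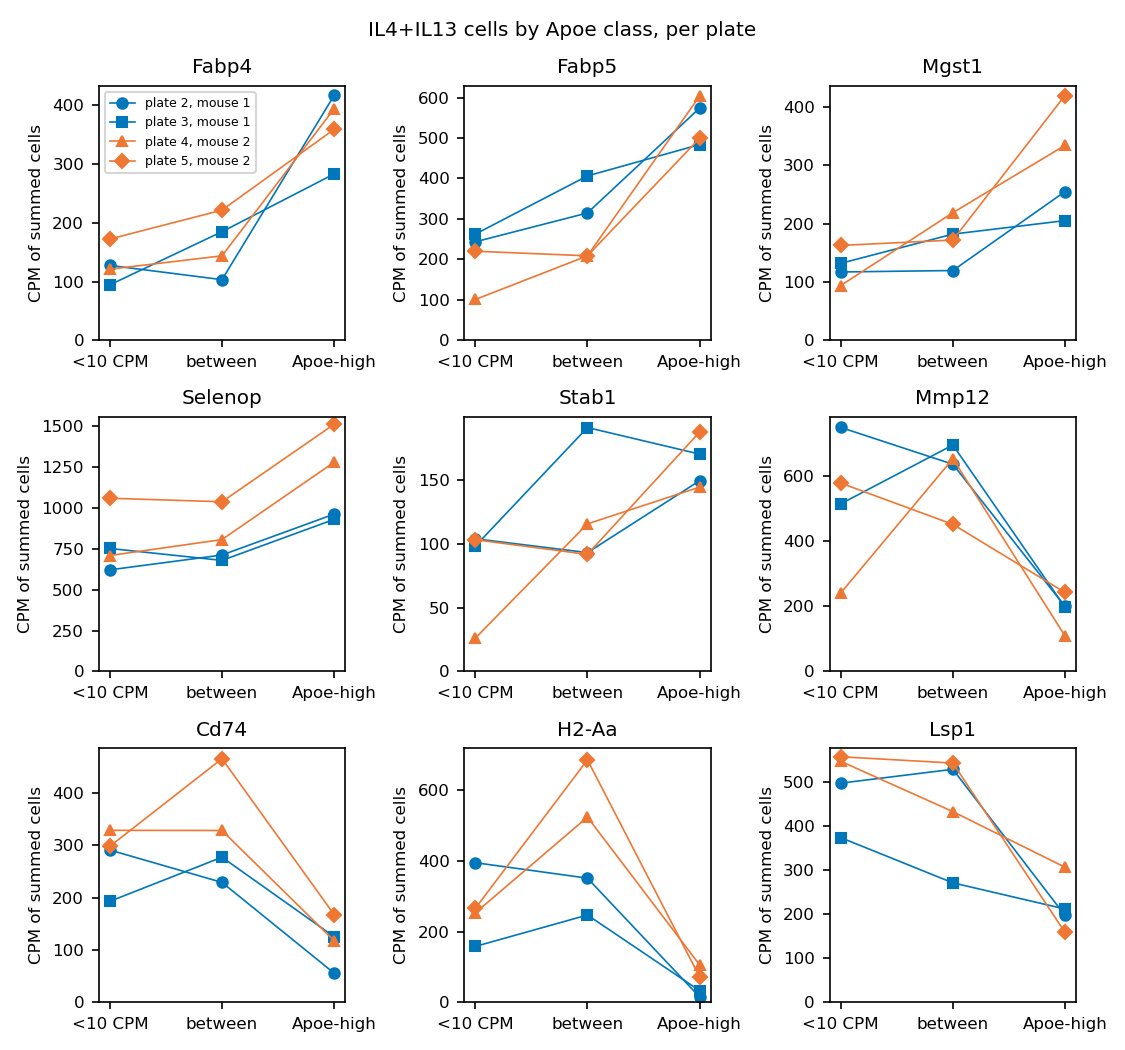
CPM of the summed cells (linear scale from 0, 1 line per plate) of 9 genes in Apoe-low cells, cells between and Apoe-high cells after IL4/IL13. Fabp4, Fabp5, Mgst1 and Stab1 do not overlap between the Apoe-low and the Apoe-high class (higher in the latter), nor do Cd74, H2-Aa and Lsp1 (lower).

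Antigen presentation genes lay in the opposite direction. Of 12 tested genes of MHC class II presentation, 10 had a negative and 2 a positive difference, with a median log2 difference of -1.11. Unadjusted p-values were under 0.05 for 6, all lower, against 2.1% of all genes in that direction, and DESeq2 called 4, against 0.217%. Cd74, the invariant chain that escorts class II molecules, was at 55.9, 126, 118 and 168 CPM in the Apoe-high cells of plates 2 to 5 and at 291, 193, 329 and 298 CPM in the Apoe-low cells. The plates did not overlap, as for 1.23% of all genes in this direction, and the difference was -1.20 ± 0.13. H2-Aa, a class II alpha chain singled out after its values were seen, was at 15.7, 33.4, 106 and 72.6 CPM against 395, 158, 253 and 266 CPM, again without overlap (-2.47 ± 0.56). In mouse 1 alone the difference was -3.37 and in mouse 2 alone -1.56, and without plate 2 it was -1.88.

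Few cells had very high class II levels, and the part of the class II difference that they held was not measured. At least 1000 CPM of H2-Aa were found in 0 of 50 Apoe-high and 18 of 263 Apoe-low cells of mouse 1, and in 2 of 58 and 3 of 47 cells of mouse 2. Over both mice this was 2 of 108 Apoe-high cells (1.85%), 21 of 310 Apoe-low cells (6.77%) and 29 of 303 cells between (9.57%), though these totals mix class with mouse, since most Apoe-low cells came from mouse 1 and most cells between from mouse 2. The highest H2-Aa level was 1104 CPM in an Apoe-high and 8799 CPM in an Apoe-low cell. For Cd74 the count past 1000 CPM was 0 of 108 in the Apoe-high class, which allows a share of up to 2.78%, against 19 of 263 Apoe-low cells in mouse 1 and 4 of 47 in mouse 2. The median H2-Aa level per cell was not lower in the Apoe-high class on any plate, with 2.99, 2.71, 24.3 and 18.003 CPM against 2.57, 2.21, 3.36 and 6.48 CPM. For Cd74 the medians were 17.3, 31.3, 54.1 and 54.1 CPM against 39.4, 28.3, 77.3 and 66.4 CPM, lower on 3 plates. The dendritic cell genes, which mark other cells rich in class II, summed to 22.2, 11.96, 32.7 and 40.9 CPM in the Apoe-high and 31.1, 21.9, 78.3 and 34.97 CPM in the Apoe-low cells of plates 2 to 5, and their part in this difference was not tested.

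Mmp12, the macrophage elastase, was lower in its summed level, with a smaller share of cells at very high levels in both mice. Its summed level was 199, 197, 109 and 242 CPM in the Apoe-high and 749, 514, 241 and 578 CPM in the Apoe-low cells, lower on each plate although plate 4 of the Apoe-low class fell within the range of the Apoe-high values. The log2 difference was -1.59 ± 0.10, a 3.02-fold lower level. Cells with at least 1000 CPM of Mmp12 numbered 4 of 50 Apoe-high and 47 of 263 Apoe-low cells in mouse 1, and 2 of 58 and 7 of 47 in mouse 2. The medians were 6.66, 24.005, 6.95 and 8.49 CPM in the Apoe-high and 31.0, 10.3, 6.26 and 18.02 CPM in the Apoe-low cells, with no common direction.

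Lsp1, an actin-binding protein of leukocytes, was instead lower in the typical cell. Its summed level was 197, 212, 306 and 159 CPM in the Apoe-high and 497, 373, 546 and 556 CPM in the Apoe-low cells (log2 difference -1.16 ± 0.11, no overlap), and its median per cell on plates 2 to 5 was 22.1, 27.2, 164 and 54.7 against 278, 199.97, 297 and 270.3 CPM. The cell-cycle inhibitor Cdkn1a had medians of 125 against 184 CPM in mouse 1 and 7.82 against 109.8 CPM in mouse 2, with a log2 difference of -0.80 ± 0.11. Tnip3, an inhibitor of NF-kB signalling, had medians of 35.95 against 105 CPM and 14.7 against 169 CPM. The tetraspan protein Emp2 reached 100 CPM in 6.0% of the Apoe-high and 22.4% of the Apoe-low cells of mouse 1, and in 6.90% and 25.5% of those of mouse 2. The remaining lower genes, Cd24a, Rnase2a, Plaur (the urokinase receptor) and Gsn (gelsolin, which severs actin filaments), differed by -1.83, -0.88, -1.19 and -0.49.

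**Figure D4:**
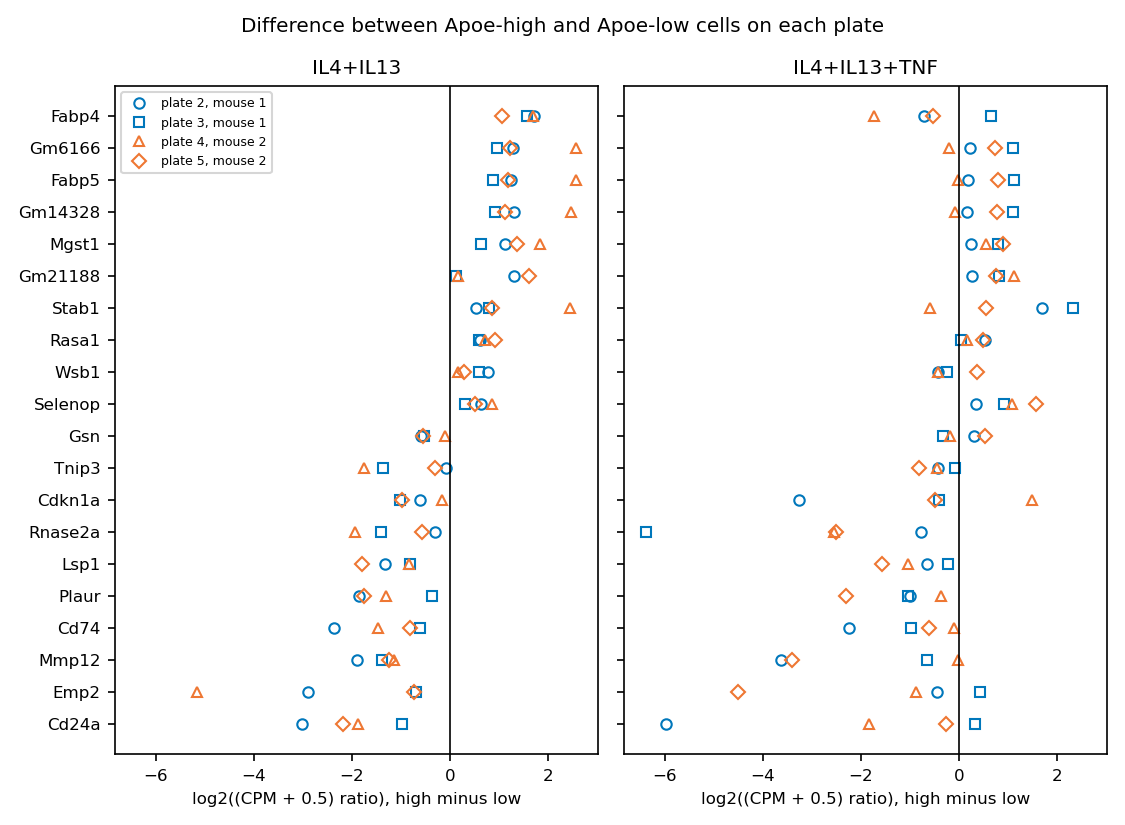
Log2 difference between Apoe-high and Apoe-low cells in each plate (points, after adding 0.5 CPM) for named genes, with IL4/IL13 and with IL4/IL13 and TNF. With IL4/IL13 the Fabp4 points are all above 0 and the Mmp12 points all below, whereas with TNF Fabp4 is above 0 on 1 of 4 plates and Mmp12 stays below 0 on 4 of 4.

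Other genes of cholesterol and lipid handling were divided, and most of the lipid genes named by the rule lay near 0. The sterol exporters Abca1 and Abcg1 differed by 0.21 and 0.09 on the log2 scale, the LXR receptor gene Nr1h3 by -0.24, lipoprotein lipase Lpl by -0.12, and the receptors Lrp1 and Cd36 by 0.10 and 0.23. Trem2, a lipid-sensing receptor, differed by -0.09 and Spp1, osteopontin, by 0.17. Pltp, the phospholipid transfer protein, was lower on each plate (-0.44 ± 0.20). Of the 23 tested genes of the LXR and RXR list 1 was higher (Smpdl3a, 0.34) and 1 lower (the desaturase Scd1, -0.66) at an unadjusted p under 0.05 (median 0.04), and of 23 cholesterol synthesis genes none was (median -0.10). The lipid uptake and storage list had 5 of 27 higher and 0 lower, Fabp4, Fabp5, the sorting receptor Sort1 (0.80 ± 0.22), the scavenger receptor Msr1 and Cd68, with a median of 0.07. The Trem2 and lipid-associated list had 8 of 25 higher and 3 lower, with a median of 0.16. Over all genes 1.69% were higher and 2.1% lower at this p. Large differences in the last list, besides Mmp12, were those of Gpx3, a secreted glutathione peroxidase (1.36 ± 0.30, higher on 4 plates), and Axl, a receptor for apoptotic cells (-2.46 ± 0.31, lower on 4 plates and called by DESeq2). Axl was detected in 16.7% of the Apoe-high and 24.2% of the Apoe-low cells, and a single cell held 39.8% of the members' Axl fragments. The growth factor Csf1 (-2.81 ± 0.91) and Ctsk (1.55 ± 0.26) also differed much but did not go the same way on all 4 plates. The melanosomal glycoprotein Gpnmb of this list was at 7217, 4889, 6308 and 4982 CPM in the Apoe-high and 3917, 3995, 3794 and 4884 CPM in the Apoe-low cells, with the lowest Apoe-high value just above the highest Apoe-low value (0.44 ± 0.10).

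Of the 6 tested genes of the apolipoprotein and Apoe locus list, 5 had a positive and 1 a negative difference. None passed an unadjusted p of 0.05, where 1.69% of all genes were higher and 2.1% lower. Tomm40, a mitochondrial import pore, and Clptm1, both near Apoe on chromosome 7, differed by 0.33 ± 0.23 and 0.11 ± 0.14. Nectin2 and Relb of this list differed by -0.73 ± 0.60 and 0.25 ± 0.61, with wide errors. Apoc1, Apoc2 and Apoc4 were too low to be tested, at 0.3 CPM or less in every class.

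The M2 genes were divided in the Apoe-high cells: of 35 tested, 16 differences were positive and 19 negative (median -0.06). At an unadjusted p under 0.05, 3 were higher and 0 lower, against 1.69% and 2.1% of all genes. The mannose receptor Mrc1 differed by 0.38 ± 0.15 and the lectins Clec10a and Mgl2 by -0.70 ± 0.28 and -0.10. Arg1, which encodes arginase, was at 17.7, 193, 29.4 and 1147 CPM in the Apoe-high and 36.6, 39.7, 0.27 and 72.4 CPM in the Apoe-low cells. A single cell held 40.0% of the members' Arg1 fragments, and the log2 difference of 2.48 ran from 0.70 to 4.51 when each mouse was taken alone. Retnla, the resistin-like M2 gene, was as uneven, with 0.49, 2.30, 725 and 1957 CPM against 14.3, 177, 97.3 and 578 CPM.

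Of the cell-cycle genes, 0 of 23 S phase and 0 of 25 G2/M genes passed an unadjusted p of 0.05 in either direction. Over all genes 1.69% were higher and 2.1% lower at this p. Counts in the other lists, higher and lower, were 0 and 1 of 27 interferon genes, 1 and 2 of 19 inflammatory genes, and 0 and 1 of 21 stress and immediate early genes. They were 2 and 0 of 14 Toll-like and scavenger recognition genes, 0 and 1 of 7 monocyte-attracting chemokines, and 1 and 0 of 16 macrophage identity genes.

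**Figure D5:**
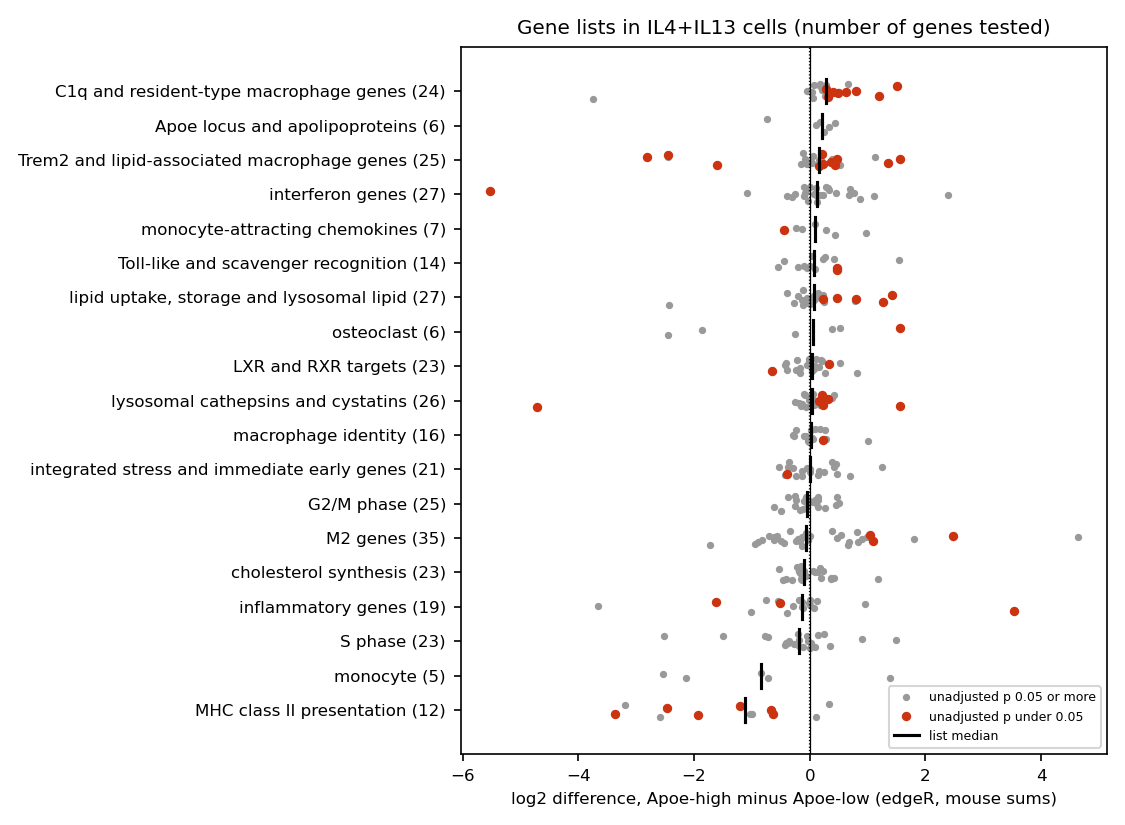
Median log2 difference between Apoe-high and Apoe-low cells for each gene list, with the number of tested genes. The MHC class II list lies lowest among the larger lists, with a median of -1.11, and the C1q and resident-type list at 0.28, while most lists lie near the median of all genes (-0.01).

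The Apoe-high cells were not uniform. Of the 108, 47 had at least 100 CPM of both Fabp4 and Fabp5, 32 had at least 100 CPM of C1qa, and 13 had all of these, while 42 had neither the pair nor C1qa. Within the class Fabp4 and Fabp5 were correlated over cells, with Spearman correlations of 0.57, 0.74, 0.71 and 0.69 on plates 2 to 5 (22, 28, 28 and 30 cells, which share plate and library pool). In the Apoe-low cells they were 0.57, 0.60, 0.19 and 0.47, the third from the 9 cells of plate 4, and in the cells between 0.33, 0.30, 0.55 and 0.43, so plate 2 gave the same value in the Apoe-high and Apoe-low class. Fabp5 and Gpnmb had correlations of 0.40, 0.38, 0.62 and 0.40 in the members and of 0.35, 0.25, -0.40 and 0.49 in the Apoe-low cells. Among the named genes the Apoe level itself followed none closely within the class: the highest mean was that of Trem2, 0.28, with 0.59, 0.31, 0.41 and -0.19 on the 4 plates.

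Over all IL4/IL13 cells the genes whose CPM followed Apoe best were Gm6166 and Fabp5, with mean Spearman correlations over the 4 plates of 0.224 and 0.222, then 4 more Fabp5 copies, the chemokine Ccl8 (0.189), Thbs1 (0.181), Mgst1 (0.177) and Selenop (0.176). These were the top 10 of 10553 genes, whose correlations ran from -0.196 to 0.224, and all are weak.

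TNF added to IL4 and IL13 allows the same questions in cells that took no part in the choice of the limit. At or above 377.7 CPM lay 40 of 718 TNF-treated cells, 6, 11, 13 and 10 on plates 2 to 5. Their share was 3.37% (95% exact binomial interval 1.25 to 7.19), 5.95% (3.01 to 10.4), 7.43% (4.01 to 12.4) and 5.56% (2.70 to 9.98), lower on every plate than the share with IL4/IL13. Per mouse the share was 5.58 ± 1.27% with TNF and 14.98 ± 1.66% without (SD, n = 2 mice), a difference of -9.40 ± 0.39 percentage points. The limit was set so that about 15% of the IL4/IL13 cells passed it, and with 2 mice no permutation of the shares can reach a p under 0.333, so the difference is given as a description. The TNF-treated Apoe-high cells had a median Apoe of 787 CPM and a highest value of 9595 CPM, and carried 69.2% of the Apoe fragments of TNF-treated cells.

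Of the 10 higher and 10 lower genes named above, 8 and 7 went the same way in both mice with TNF, where 21.3% and 32.2% of all genes did so upward and downward. On all 4 plates 4 and 6 did, but the share of all genes that did so with TNF was not taken. The 10 higher genes count Fabp5 and its copies Gm6166 and Gm14328 separately, although the copies are no separate evidence. edgeR called none of 15890 genes between TNF-treated Apoe-high and Apoe-low cells, with 899 (5.66%) at an unadjusted p under 0.05, and none of 15739 for the difference between the contrasts with and without TNF, with 824 (5.24%). TNF plate 2 rests on 6 Apoe-high cells.

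Mgst1, Selenop, the C1q chains, Mmp12 and the class II genes Cd74, H2-Aa and H2-Ab1 lay in the direction of their IL4/IL13 difference on 4 of 4 plates with TNF. The share of all genes that did so was not taken. With IL4/IL13 itself, the C1q chains and H2-Ab1 had not gone the same way on all 4 plates. Selenop was at 228, 309, 563 and 720 CPM in the TNF-treated Apoe-high and 179, 161, 263 and 241 CPM in the Apoe-low cells, a log2 difference of 1.09 ± 0.21. H2-Aa was at 29.1, 176, 391 and 351 CPM against 757, 670, 1041 and 1205 CPM (-2.02 ± 0.25). Cells with at least 1000 CPM of H2-Aa were 5 of 40 Apoe-high and 82 of 404 Apoe-low cells, totals that mix class with mouse. Mgst1 differed by 0.77 ± 0.13, C1qa by 0.74 ± 0.22, C1qc by 1.10 ± 0.20 and Mmp12 by -0.97 ± 0.12.

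Fabp4 did not lie in the same direction. It was at 88.7, 210, 66.2 and 183 CPM in the TNF-treated Apoe-high cells and at 145, 133, 219 and 264 CPM in the Apoe-low cells, higher on plate 3 and lower on the other plates (log2 difference -0.33 ± 0.39). The difference between the contrasts was -1.73, with an edgeR adjusted p of 0.90. Fabp5 was at 378, 659, 291 and 643 CPM against 332, 303, 292 and 370 CPM, higher on plates 2, 3 and 5 and level on plate 4 (0.66 ± 0.16).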

How the data were processed

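The authors deposited counts of fragments per gene and well, made from uniquely mapped reads with gsnap (mm10) and featureCounts 1.6.3 against Ensembl 98 per the paper's methods and the submitters' processing notes. Strand was not used, so overlapping and antisense genes cannot be told apart, and without molecular identifiers intervals and zero limits cover counting error only. Of 55421 genes and 92 spike-ins, spike-ins stayed out of library sizes. Wells with at least 200000 gene fragments, 5000 detected genes and at most 10% mitochondrial fragments were kept, and no doublet caller was run on the sorted wells. Members were the highest 15% in Apoe CPM; Apoe was left out of tests and library sizes. Summed depth was 23313779 (Apoe-high) and 132495885 (Apoe-low) fragments in mouse 1 and 27887121 and 21263295 in mouse 2.

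Counts summed per mouse and class were tested with edgeR 4.0.16 (quasi-likelihood, TMM, mouse as block, genes found in at least 5% of a class's cells and passing filterByExpr, Benjamini-Hochberg, 0.05). The script was tested on simulated data. Both classes come from the same animals, which pairs them, and their deviations correlated (r = 0.270 over 15222 genes). DESeq2 1.42.0 and limma 3.58.1 were alternatives, as were other scalings, filters, limits, equal depth per cell and left-out plates or mice. Plate log2 differences used a pseudocount of 0.5 CPM. Named genes were a set of lipid, macrophage and M2 genes, the 10 higher and 10 lower genes with the smallest unadjusted p among those going the same way on 4 plates and found in at least 25% of cells of the higher class (none passed the adjusted threshold), and the 10 most correlated with Apoe. H2-Aa, H2-Ab1 and list genes cited for an unadjusted p were named after their values were seen. Members, lists and tests were chosen with earlier results of these data known. Columns of 11 wells, 8 matching no label, were not used, nor were 4 samples without a group.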

Additional observations from a re-analysis of the deposited data

Results flagged for a closer look

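Log2 differences between Apoe-high and Apoe-low cells were screened for a plate far from the other 3. Of 114 groups of 4 plate values, 6 passed Dixon's 95% critical value of 0.829, and chance passes about 1 in 20 groups. The plates of a mouse are not independent. With IL4/IL13, Scd2, a fatty acid desaturase, differed by -1.09 on plate 4 and by 0.10, 0.12 and 0.13 on the others. Gsn differed by -0.11 on plate 4 and by -0.59, -0.56 and -0.53 on the others. Plate 4 holds 9 Apoe-low cells. Clec10a differed by 0.080 on plate 5 and by -1.21, -1.20 and -1.18 elsewhere, and Mrc1 by 0.73 on plate 5 and by 0.06, 0.08 and 0.16 elsewhere. With TNF, the Fabp5 copy Gm13998 differed by 0.064 on plate 4 against 1.04, 1.05 and 1.13, and H2-Aa by -4.68 on plate 2, with its 6 Apoe-high cells, against -1.93, -1.78 and -1.41.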

How the results depend on the processing

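DESeq2 called 20 genes higher, 33 lower and 16 list members, where edgeR called 0 in all 18 of its settings and limma 0. These settings include the plate as replicate block and no replicate block, both with 0 calls, a count that cannot go lower. At an unadjusted p, 145 genes were higher and 210 lower with no replicate block, against 258 and 319 with the mice paired. These counts ran from 35 to 533 higher and from 80 to 906 lower over the settings, lowest without plate 5 and highest with no filter on low genes. Of 600 log2 differences (30 genes under 20 alternatives) 599 kept their direction: C1qb, at 0.21, was -0.066 with plate 5 left out, and its range over left-out plates or mice was -0.066 to 0.38. Leaving out the deepest Apoe-low well (6122892 fragments) was chosen after seeing the data and reversed none. Over both mice the spike-in share was 0.060% as a median and 0.077% as a mean in the Apoe-high cells. In the Apoe-low cells it was 0.046% and 0.062%, and these pooled values mix class with mouse. With TNF the share of Apoe-high cells stayed lower under every alternative run. The depth of the sums limits low genes, and 2 mice leave 1 residual degree of freedom.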

Other observations

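Lysosomal genes were divided. Of 26 tested cathepsin, cystatin and lysosomal genes 5 were higher and 1 lower in the Apoe-high cells at an unadjusted p under 0.05 (median log2 difference 0.04, 16 positive and 10 negative), against 1.69% and 2.1% of all genes. The lower one was Ctse, an aspartic protease of endosomes (-4.71 ± 0.75, lower on 4 plates and called by DESeq2), which was detected in 2.78% of the Apoe-high and 8.71% of the Apoe-low cells. The abundant proteases Ctsb, Ctsd, Ctsl and Lgmn were higher on each plate, by 0.16, 0.22, 0.20 and 0.31 on the log2 scale. Ctsk, the collagen-degrading cathepsin of osteoclasts, was at 204, 57.9, 16.8 and 179 CPM in the Apoe-high and 92.6, 17.5, 27.2 and 26.2 CPM in the Apoe-low cells of plates 2 to 5, lower on plate 4. A single cell held 31.1% of the Ctsk fragments of the Apoe-high class. Of 6 tested osteoclast genes 1 was higher and 0 lower at that limit. These genes were named after their values were seen.

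The chemokine Ccl8 reached 100 CPM in 9 of 108 Apoe-high cells (8.33%) and 21 of 310 Apoe-low cells (6.77%) with IL4/IL13. With TNF it did so in 21 of 40 (52.5%) and 110 of 404 (27.2%). These totals mix class with mouse. With TNF, 17 of the 40 Apoe-high but 292 of the 404 Apoe-low cells came from mouse 1.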
